A study of Mus musculus with 8 samples.

Results

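The lysosomal genes described here are 39 genes for hydrolases, cathepsins, membrane proteins and proton pump subunits of the lysosome, chosen by name from the 55401 genes of the count table. The cathepsin Ctsk, the acid phosphatase Acp5 and the pump subunit Atp6v0d2, which are abundant in osteoclasts, were left out by the rule and serve as osteoclast markers. By role they were 9 glycosidases, 6 hydrolases of lipids and other substrates, 10 cathepsins and other proteases, 7 membrane and lipid transfer proteins, 5 proton pump subunits, and Tfeb and Grn. The RNA came from BMDM, macrophages differentiated in culture from mouse bone marrow, in 4 groups of 2 libraries. KO cells with LPS and nigericin and KO cells with PBS came from Lyz2-Cre-Mettl3fl/fl mice. WT cells with LPS and nigericin and WT cells with PBS came from Mettl3fl/fl mice, which carry the same floxed alleles without Cre. METTL3 is the enzyme that writes N6-methyladenosine on mRNA, and Lyz2-Cre is active in cells of the myeloid lineage, so the effects of losing Mettl3 and of carrying Cre cannot be told apart. Stimulated cells received 50 ng/ml LPS, a ligand of TLR4, overnight and then 10 µM nigericin, which lets potassium leave the cell and thereby triggers NLRP3, for 3 h. The series text names 1 h as well as 3 h for nigericin, and the labels of these libraries give 3 h. There was no group with LPS alone or nigericin alone. The sources used here do not give the age of the mice.

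The lysosome degrades proteins, glycans and lipids that reach it by endocytosis, phagocytosis and autophagy. A membrane proton pump, the V-ATPase, keeps its lumen acid, which most of its hydrolases need. Macrophages are rich in lysosomes, where they digest what they engulf and where cysteine cathepsins trim antigens and the invariant chain of MHC class II. The transcription factor TFEB, with its relatives TFE3 and MITF, binds a palindrome known as the CLEAR element near the start of many lysosomal genes.

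Libraries held 55032057 to 65487739 counts, and all 39 genes passed the filter on low counts, with 17470 genes tested in all. Levels are given in CPM, counts scaled for the size and composition of each library. Mettl3 itself had 9.08 and 7.87 CPM in stimulated KO cells, against 28.2 and 23.4 CPM in stimulated WT cells. With PBS it had 5.63 and 6.33 CPM in KO cells, against 13.6 and 13.3 CPM in WT cells, so the remaining counts, which cover the whole gene, followed the genotype labels. The macrophage markers Csf1r (3510 to 4970 CPM) and Adgre1 (1620 to 5940 CPM) were present in every library. Ly6g, a defining neutrophil marker, was listed at 0 in all 8 libraries. Other neutrophil markers were counted, among them S100a8, with 26.3 to 32.1 CPM after stimulation and 2.58 to 4.24 CPM with PBS. The labels do not tell separate mice or cultures from repeat preparations, so the p-values rest on a spread between libraries that may be technical.

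Promoter windows from RefSeq (GRCm38.p6, 250 bases before to 50 bases after the transcript start) were found for 33 of the 39 genes, in 39 windows. The windows were searched for the 8-letter core of the CLEAR element, TCACGTGA, and for the 6-letter E-box CACGTG that lies inside it. Both are palindromes, so each match counts for both strands, and every match to the longer motif is also a match to the shorter. In the 250 bases upstream, TCACGTGA occurred in 6 of the 33 genes (18.2%), which are Gla, Ctsa, Ctsd, Mcoln1, Cln3 and Atp6v1a. Over windows, it occurred in 15.4% of the 39 windows of lysosomal genes and in 0.785% of all 32851 promoter windows of the same length. The element is already known from promoters of lysosomal genes, so this higher share is not an independent result. The shorter CACGTG occurred in 12 of the 33 genes (36.4%), and in 30.8% of the windows of lysosomal genes against 6.02% of all windows. The 7 upstream sequences below are those of Lipa, Psap and Gpnmb, the genes whose responses differed between genotypes, and of 4 genes with matches. The sequences are written 5′ to 3′ on the strand of the gene, end at the base before the RefSeq start, and carry matches in capitals. Psap has 2 starts in the table, of which 1 is shown.

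Lipa, chr19:34527475-34527724, minus strand: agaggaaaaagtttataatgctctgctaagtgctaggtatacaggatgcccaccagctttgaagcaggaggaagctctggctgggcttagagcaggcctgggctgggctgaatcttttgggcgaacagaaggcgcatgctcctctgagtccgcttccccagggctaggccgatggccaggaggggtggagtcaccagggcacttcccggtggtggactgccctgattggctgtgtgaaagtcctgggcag

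Psap, chr10:60277378-60277627, plus strand: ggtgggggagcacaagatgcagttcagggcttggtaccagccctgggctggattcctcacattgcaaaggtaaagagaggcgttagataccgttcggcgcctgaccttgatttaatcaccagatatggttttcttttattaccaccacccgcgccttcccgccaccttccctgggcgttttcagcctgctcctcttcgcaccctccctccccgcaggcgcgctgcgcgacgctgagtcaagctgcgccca

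Gpnmb, chr6:49036268-49036517, plus strand: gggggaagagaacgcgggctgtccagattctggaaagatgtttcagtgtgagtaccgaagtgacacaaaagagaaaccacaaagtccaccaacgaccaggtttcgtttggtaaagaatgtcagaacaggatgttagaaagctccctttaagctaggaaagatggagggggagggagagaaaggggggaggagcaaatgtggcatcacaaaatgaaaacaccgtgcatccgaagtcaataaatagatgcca

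Gla, chrX:134601006-134601255, minus strand: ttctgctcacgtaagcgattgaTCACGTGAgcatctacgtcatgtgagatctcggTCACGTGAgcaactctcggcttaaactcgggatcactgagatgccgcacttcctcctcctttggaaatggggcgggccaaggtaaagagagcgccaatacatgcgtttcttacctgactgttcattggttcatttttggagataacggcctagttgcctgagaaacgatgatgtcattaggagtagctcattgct

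Ctsd, chr7:142387828-142388077, minus strand: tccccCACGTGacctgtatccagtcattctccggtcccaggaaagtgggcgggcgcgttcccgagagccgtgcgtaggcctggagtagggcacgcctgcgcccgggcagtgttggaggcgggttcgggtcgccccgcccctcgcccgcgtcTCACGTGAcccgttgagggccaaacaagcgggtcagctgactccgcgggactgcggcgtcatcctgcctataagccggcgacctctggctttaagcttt

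Atp6v1a, chr16:44139260-44139509, minus strand: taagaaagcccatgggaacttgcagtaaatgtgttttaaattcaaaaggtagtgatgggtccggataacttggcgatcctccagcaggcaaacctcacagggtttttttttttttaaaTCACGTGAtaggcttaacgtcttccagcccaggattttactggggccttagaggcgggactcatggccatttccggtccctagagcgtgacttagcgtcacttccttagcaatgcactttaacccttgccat

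Lamp1, chr8:13158911-13159160, plus strand: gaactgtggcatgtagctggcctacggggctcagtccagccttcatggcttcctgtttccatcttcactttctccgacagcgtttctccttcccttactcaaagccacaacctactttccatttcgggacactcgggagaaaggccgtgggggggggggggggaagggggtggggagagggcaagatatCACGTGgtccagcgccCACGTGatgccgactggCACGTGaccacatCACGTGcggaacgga

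The upstream windows of Lipa, Psap and Gpnmb held neither run of letters, which says nothing of sites elsewhere or of binding. Gla carried the 8-letter core at 2 places, with first bases at -228 and -195 counted from the start, and Ctsd carried it once, at -99, with an E-box at -245. Lamp1 carried 4 E-boxes, at -61, -45, -28 and -15, and no 8-letter core. In the GENCODE M21 annotation, Gla and Ctsd begin inside their windows and Atp6v1a begins upstream of its window, so these windows reach into annotated transcripts.

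**Figure D1:**
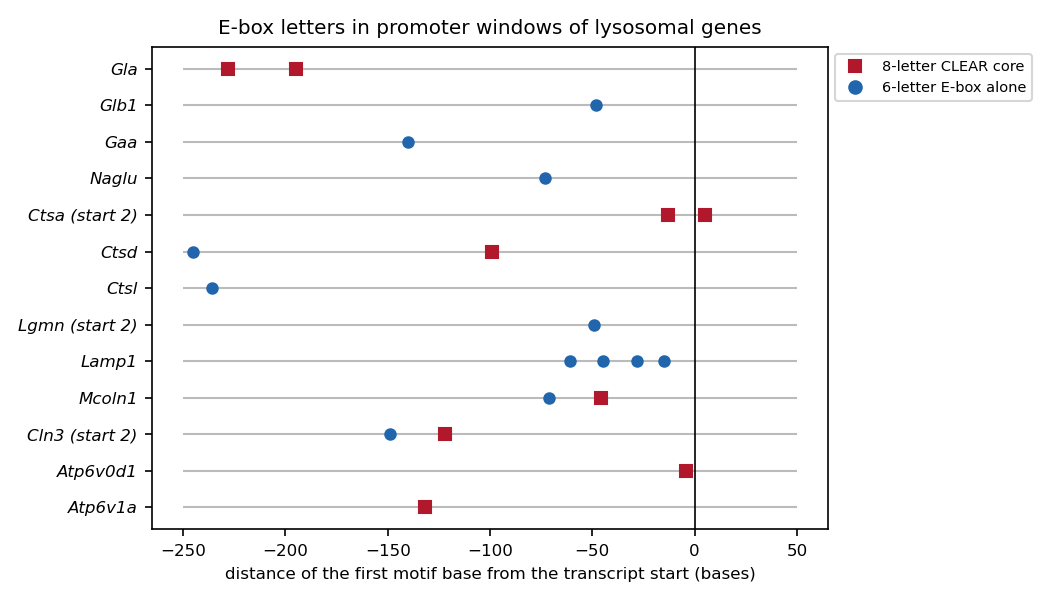
Each line is the promoter window of a lysosomal gene with at least 1 match, and the x axis gives the distance in bases of the first motif base from the RefSeq transcript start (black line). Red squares mark the 8-letter CLEAR core and blue circles the 6-letter E-box outside such a core. Most matches lie upstream of the start, and Lamp1 has 4 E-boxes in a row.

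Lysosomal mRNAs made up a large part of the macrophage transcriptome, and their summed level was lower after LPS and nigericin in both genotypes. The 39 genes summed to 56460 and 56770 CPM in stimulated KO cells, against 112300 and 120400 CPM in KO cells with PBS. In WT cells they summed to 67210 and 71340 CPM after stimulation, against 112300 and 117200 CPM with PBS. As a share of all counts this was 5.64 to 5.71% in stimulated KO cells and 12 to 12.6% in KO cells with PBS. The share was 6.27 to 6.33% in stimulated WT cells and 11.7 to 12% in WT cells with PBS. The stimulated level was 0.487 of the PBS level in KO cells and 0.604 of it in WT cells, and the stimulated groups did not overlap with the PBS groups or with each other. Psap, Gpnmb, Ctsd and Ctsb together carried 86.8% of the summed loss in KO cells and 88.5% of that in WT cells. In bulk RNA, fewer cells of a type and less RNA per cell cannot be told apart.

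**Figure D2:**
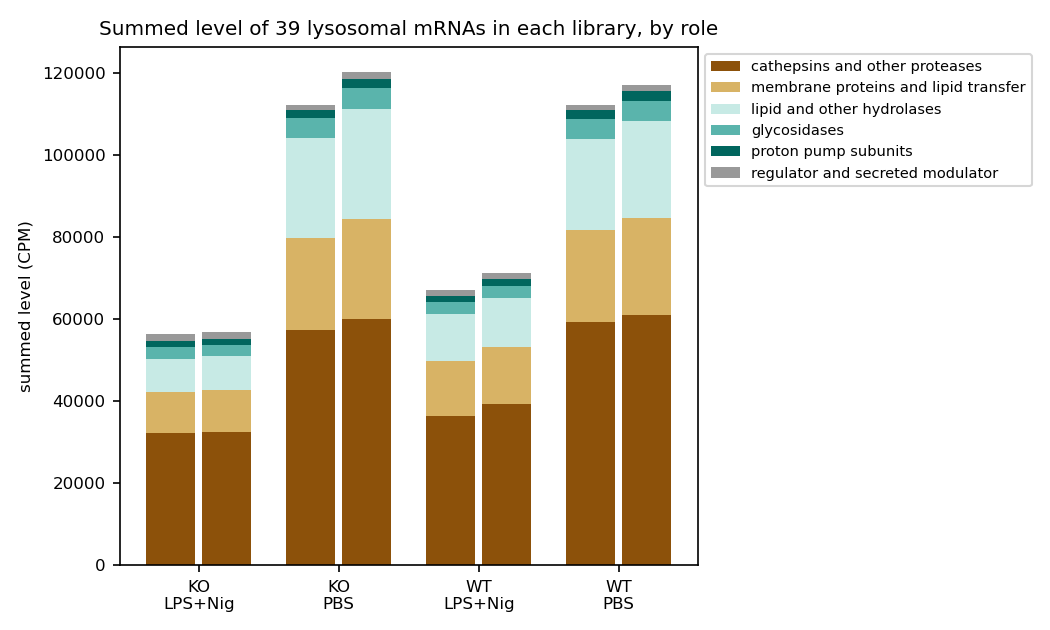
Each bar is 1 library and its height is the summed level of the 39 lysosomal mRNAs in CPM, split by role. The 2 stimulated KO libraries reach 56460 and 56770 CPM and the 2 stimulated WT libraries 67210 and 71340 CPM, below the 4 PBS libraries at 112300 to 120400 CPM.

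Per kilobase of exon, Ctsd, which encodes the main lysosomal aspartic protease, was the most abundant of the 39 in every group, with 4240 CPM per kb in stimulated KO cells, 5040 in stimulated WT cells, 9500 in KO cells with PBS and 9150 in WT cells with PBS. Ctss, Psap and Ctsb were among the 5 highest per kb in every group. Tfeb, Mcoln1 and Atp6v1h, the transcription factor, a calcium channel and a pump subunit, were among the 4 lowest in every group, with group means of 4.28 to 11.8 CPM per kb. Acp2 and Ctsc changed place the most upwards after stimulation. Per kb, Ctsc ranked 13 of 39 in stimulated KO cells and 28 in KO cells with PBS, and 14 in stimulated WT cells and 31 in WT cells with PBS. Lipa moved the other way, ranking 27 in stimulated KO cells and 13 in KO cells with PBS, and 19 in stimulated WT cells and 13 in WT cells with PBS. The exonic annotation of Ctsd shares 34.4% of its length with Gm49369 on the same strand, and that of Ctsl shares 26.8% with Gm47123 on the opposite strand. The sources used here do not say whether the counting kept strand, so counts of these genes may include reads of their partners.

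The responses to LPS and nigericin were tested in each genotype with edgeR's quasi-likelihood test, and a gene is called at an adjusted p below 0.05 over all genes tested. In KO cells 24 of the 39 lysosomal genes fell and 5 rose, where 19.0% of all genes tested fell and 20.2% rose. In WT cells 19 fell and 6 rose, where 20.0% of all genes fell and 20.6% rose. The median log2 fold change was -0.42 in KO cells, where that of all genes was -0.03, and -0.22 in WT cells, where that of all genes was -0.01. The 2 responses share no library but come from 1 fit, which estimates their errors together. Of the 39 genes 19 fell in both responses, 4 rose in both (Acp2, Neu1, Ctsc and Ctsz) and 8 were called in neither. How often all genes tested did so was not counted. Gaa and Npc2 rose in WT cells and were not called in KO cells, and Ppt1 rose in KO cells and was not called in WT cells. Glb1, Ctsa, Mcoln1, Atp6v0d1 and Tfeb fell in KO cells and were not called in WT cells, and for none of these 8 genes was the difference between the responses called (adjusted p 0.238 to 0.904). Scaled by library size alone, which puts the median of all genes at -0.11 in KO cells and -0.20 in WT cells, the lysosomal medians were -0.50 in KO cells and -0.41 in WT cells.

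**Figure D3:**
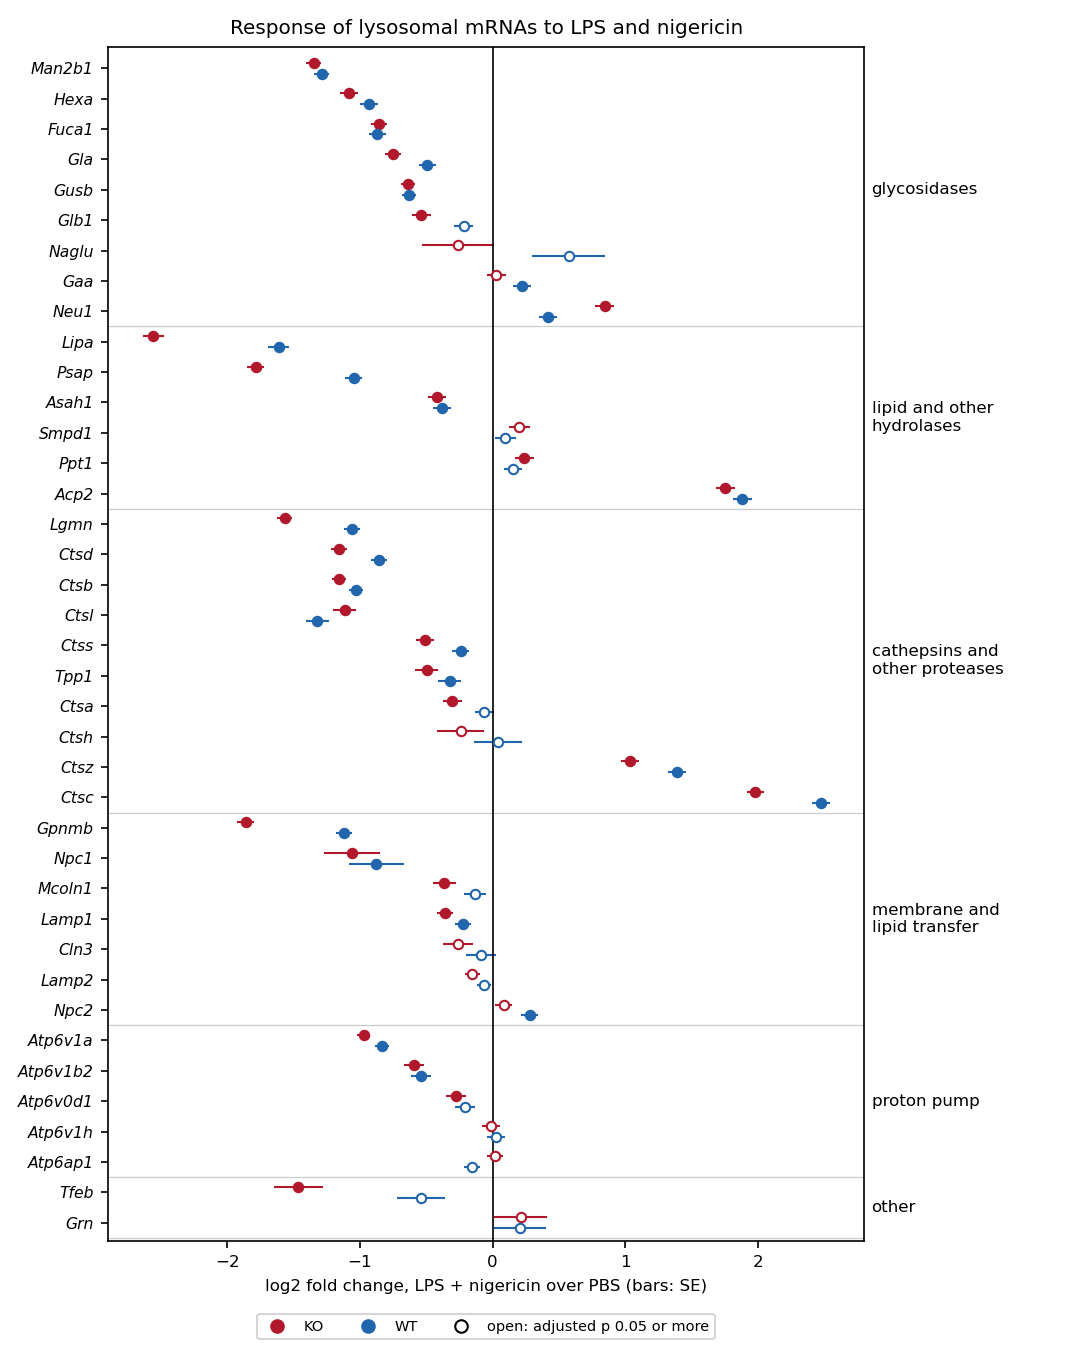
Each row is a lysosomal gene, grouped by role, and the x axis gives the log2 fold change of LPS and nigericin over PBS with its standard error, in KO cells (red, upper) and WT cells (blue, lower). Filled points passed an adjusted p of 0.05. Most points lie left of 0, and Ctsc, Acp2, Ctsz and Neu1 lie right of it in both genotypes.

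Of the 9 glycosidases, which strip sugars from glycoproteins, glycolipids and glycogen, 6 fell and 1 rose in stimulated KO cells, and 5 fell and 2 rose in stimulated WT cells. Man2b1, the lysosomal alpha-mannosidase, had 577 and 585 CPM in stimulated KO cells, against 1440 and 1520 CPM in KO cells with PBS. In WT cells it had 632 and 641 CPM after stimulation, against 1530 and 1580 CPM with PBS. These are log2 fold changes of -1.35 ± 0.06 (SE) in KO cells and -1.29 ± 0.06 in WT cells, nearly the same size, and the stimulated and PBS libraries are far apart. Hexa, the alpha subunit of the hexosaminidase that degrades GM2 ganglioside, fell by 1.08 ± 0.07 in KO cells and by 0.93 ± 0.07 in WT cells. The fucosidase Fuca1 fell by 0.86 ± 0.06 in KO cells and by 0.87 ± 0.06 in WT cells. Gusb, beta-glucuronidase, fell by 0.64 ± 0.05 in KO cells and by 0.63 ± 0.05 in WT cells. For Fuca1 and Gusb the estimates of the 2 genotypes differed by less than their standard errors. Glb1, beta-galactosidase, fell by 0.54 ± 0.07 in KO cells and was at -0.22 ± 0.07 in WT cells (adjusted p = 0.0524). The WT fall of Glb1 was called by DESeq2, limma-voom, both other scalings, a stricter filter and a block for the replicate number. It was not called without a filter or in the fit of the WT libraries alone. Gaa, the glucosidase that degrades glycogen, rose by 0.22 ± 0.07 in WT cells and was at 0.03 ± 0.07 in KO cells. That WT call of Gaa was lost without any 1 of 6 of the 8 libraries (adjusted p up to 0.201) and under scaling by library size alone.

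Gla, the alpha-galactosidase that clears globotriaosylceramide, had 161 and 164 CPM in stimulated KO cells, against 276 and 271 CPM in KO cells with PBS. It had 217 and 231 CPM in stimulated WT cells, against 317 and 312 CPM in WT cells with PBS, and it fell by 0.75 ± 0.06 in KO cells and by 0.49 ± 0.06 in WT cells. Neu1, the lysosomal sialidase, was the one glycosidase that rose in both genotypes. It had 223 and 221 CPM in stimulated KO cells, against 120 and 128 CPM in KO cells with PBS. In WT cells it had 153 and 162 CPM after stimulation, against 114 and 121 CPM with PBS. Both rises were called, at 0.84 ± 0.07 in KO cells and 0.42 ± 0.07 in WT cells, and stimulated KO libraries stood above all others. Naglu, which removes N-acetylglucosamine residues from heparan sulfate, had 151 and 161 CPM in stimulated KO cells, against 125 and 248 CPM in KO cells with PBS. In WT cells it had 123 and 127 CPM after stimulation, against 84 and 84.2 CPM with PBS. The 2 KO libraries with PBS differed 1.98-fold for Naglu. Its KO response was -0.26 ± 0.27, and it was 0.32 without replicate 2 of that group and -0.67 without replicate 1. The WT response of Naglu was 0.57 ± 0.27 and was not called (adjusted p = 0.142). The fit of the WT libraries alone called it.

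Of the 6 hydrolases of lipids and other substrates, 3 fell and 2 rose in stimulated KO cells, and 3 fell and 1 rose in stimulated WT cells. Lipa, the acid lipase that frees cholesterol and fatty acids from esters taken up with lipoproteins, had 388 and 393 CPM in stimulated KO cells, against 2170 and 2430 CPM in KO cells with PBS. It had 651 and 658 CPM in stimulated WT cells, against 1900 and 2100 CPM in WT cells with PBS. The level after stimulation was 0.17 of that with PBS in KO cells (log2 fold change -2.56 ± 0.08) and 0.327 of it in WT cells (-1.61 ± 0.08). No other gene of the 39 fell further in either genotype. Psap, the precursor of the saposins that present sphingolipids to their hydrolases, had 6460 and 6500 CPM in stimulated KO cells, against 21300 and 23400 CPM in KO cells with PBS. It had 9430 and 9840 CPM in stimulated WT cells, against 19300 and 20500 CPM in WT cells with PBS, and it fell by 1.79 ± 0.07 in KO cells and by 1.05 ± 0.06 in WT cells. In both genes the 2 stimulated KO libraries were the lowest of the 8, and no groups of 1 genotype overlapped.

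The other genes of this role moved less or upwards. Asah1, acid ceramidase, fell by 0.42 ± 0.07 in KO cells and by 0.38 ± 0.07 in WT cells. Smpd1, acid sphingomyelinase, was not called in either response, at 0.20 ± 0.08 in KO cells and 0.10 ± 0.08 in WT cells. Ppt1, which removes palmitate from proteins, rose by 0.24 ± 0.07 in KO cells (adjusted p = 0.0352) and was at 0.15 ± 0.07 in WT cells. That KO call was lost without any 1 of 6 of the 8 libraries. Acp2, lysosomal acid phosphatase, had 653 and 629 CPM in stimulated KO cells, against 182 and 198 CPM in KO cells with PBS. It had 797 and 745 CPM in stimulated WT cells, against 203 and 214 CPM in WT cells with PBS, a rise of 3.37-fold in KO cells and 3.69-fold in WT cells.

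**Figure D4:**
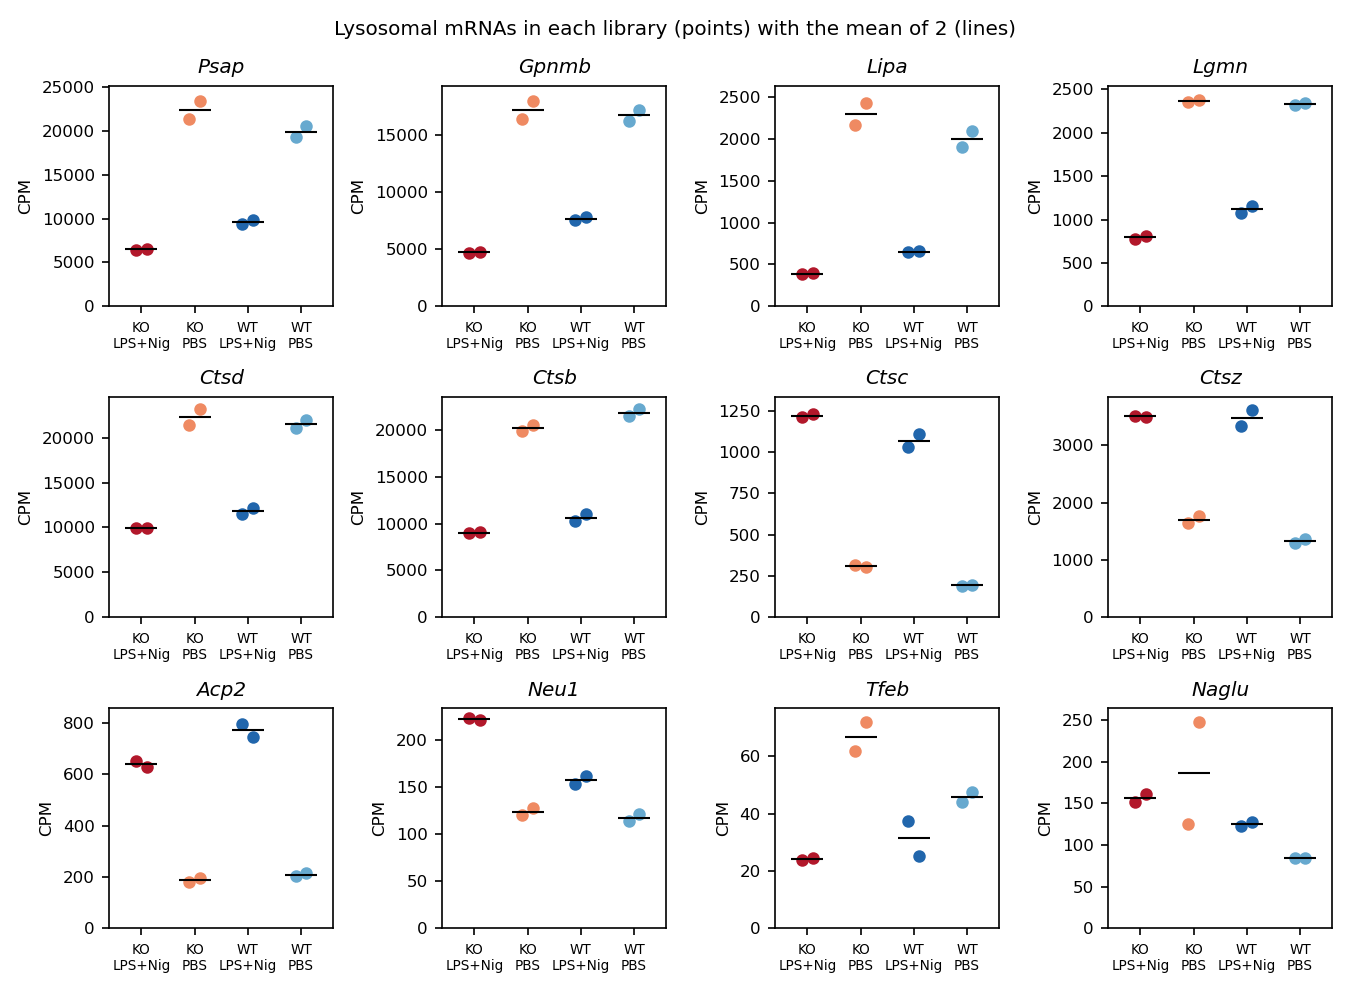
Each panel is a lysosomal gene, with the level of each library (points, CPM on a linear axis from 0) and the mean of the 2 libraries (line) in KO cells with LPS and nigericin or PBS and in WT cells with LPS and nigericin or PBS. Psap, Gpnmb and Lipa are lowest in stimulated KO cells, Ctsc, Ctsz and Acp2 are high in both stimulated groups, and the 2 KO libraries with PBS differ widely for Naglu.

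The cathepsins and other proteases split into 7 that fell and 2 that rose in KO cells, and 6 that fell and 2 that rose in WT cells. Ctsb, a cysteine protease that works both as endopeptidase and as peptidyl-dipeptidase, had 8990 and 9120 CPM in stimulated KO cells, against 19900 and 20500 CPM in KO cells with PBS. It had 10300 and 11000 CPM in stimulated WT cells, against 21500 and 22200 CPM in WT cells with PBS, falls of 1.16 ± 0.05 in KO cells and 1.03 ± 0.05 in WT cells. Ctsd had 9970 and 9980 CPM in stimulated KO cells, against 21400 and 23200 CPM in KO cells with PBS. It had 11500 and 12200 CPM in stimulated WT cells, against 21100 and 22000 CPM in WT cells with PBS, falls of 1.16 ± 0.06 in KO cells and 0.86 ± 0.06 in WT cells. The 2 stimulated KO libraries were the lowest of the 8 for both. Ctsl, a broad endopeptidase, fell by 1.11 ± 0.09 in KO cells and by 1.32 ± 0.09 in WT cells. Lgmn, the asparaginyl endopeptidase that processes cathepsins, had 781 and 814 CPM in stimulated KO cells, against 2350 and 2380 CPM in KO cells with PBS. It had 1080 and 1160 CPM in stimulated WT cells, against 2320 and 2340 CPM in WT cells with PBS, falls of 1.57 ± 0.06 in KO cells and 1.06 ± 0.06 in WT cells.

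Ctss, the cathepsin that cleaves the MHC class II invariant chain, had 4820 and 4940 CPM in stimulated KO cells, against 6800 and 7100 CPM in KO cells with PBS. It had 6150 and 6830 CPM in stimulated WT cells, against 7470 and 7880 CPM in WT cells with PBS. Its fall was 0.51 ± 0.07 in KO cells and 0.24 ± 0.07 in WT cells, smaller than those of Ctsb and Ctsd, and the WT call was lost without WT PBS replicate 1, WT PBS replicate 2 or stimulated WT replicate 1 (adjusted p up to 0.119). Tpp1, tripeptidyl peptidase, fell by 0.50 ± 0.09 in KO cells and by 0.32 ± 0.08 in WT cells, and the WT call was lost without the same libraries. Ctsa, the carboxypeptidase that also stabilises beta-galactosidase and sialidase, fell by 0.30 ± 0.07 in KO cells and was at -0.06 ± 0.07 in WT cells. Its KO call was lost without any 1 of the 4 KO libraries (adjusted p up to 0.083). Ctsh, an aminopeptidase, differed between the libraries of a group by 1.11- to 1.33-fold and was called in neither genotype.

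Ctsc, the dipeptidyl peptidase that activates granule serine proteases, had the largest rise of the 39. It had 1210 and 1230 CPM in stimulated KO cells, against 316 and 302 CPM in KO cells with PBS. It had 1030 and 1110 CPM in stimulated WT cells, against 189 and 197 CPM in WT cells with PBS. The rise was 3.95-fold in KO cells and 5.55-fold in WT cells, and the stimulated and PBS libraries are far apart. Ctsz, a carboxypeptidase, had 3510 and 3500 CPM in stimulated KO cells, against 1640 and 1770 CPM in KO cells with PBS. It had 3330 and 3610 CPM in stimulated WT cells, against 1290 and 1360 CPM in WT cells with PBS, a rise of 2.05-fold in KO cells and 2.62-fold in WT cells. After stimulation the KO and WT libraries overlap for Ctsz.

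Of the 7 membrane and lipid transfer proteins, 4 fell and none rose in KO cells, and 3 fell and 1 rose in WT cells. Gpnmb, a transmembrane glycoprotein of lysosomes and melanosomes, had 4660 and 4790 CPM in stimulated KO cells, against 16400 and 18000 CPM in KO cells with PBS. It had 7580 and 7810 CPM in stimulated WT cells, against 16300 and 17200 CPM in WT cells with PBS. Its fall was 1.86 ± 0.06 in KO cells and 1.12 ± 0.06 in WT cells, and the 2 stimulated KO libraries were the lowest of the 8. Npc1, the membrane protein that exports cholesterol, had 162 and 232 CPM in stimulated KO cells, against 337 and 484 CPM in KO cells with PBS. It had 272 and 263 CPM in stimulated WT cells, against 498 and 484 CPM in WT cells with PBS, falls of 1.06 ± 0.21 in KO cells and 0.88 ± 0.21 in WT cells. The WT call of Npc1 was lost without WT PBS replicate 1 or either stimulated WT library (adjusted p up to 0.072). Npc2, the luminal protein that hands cholesterol to NPC1, rose by 0.28 ± 0.06 in WT cells and was at 0.08 ± 0.06 in KO cells. The WT rise of Npc2 was lost without WT PBS replicate 1 (adjusted p = 0.075) and under scaling by library size alone.

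The structural glycoprotein Lamp1 had 2350 and 2320 CPM in stimulated KO cells, against 2910 and 3060 CPM in KO cells with PBS, a fall of 0.36 ± 0.06. It had 2380 and 2570 CPM in stimulated WT cells, against 2840 and 2940 CPM in WT cells with PBS, a fall of 0.22 ± 0.06. The WT call of Lamp1 was lost without WT PBS replicate 1, WT PBS replicate 2 or stimulated WT replicate 1 (adjusted p up to 0.107). Lamp2, its relative with a role in autophagy, was at -0.15 ± 0.06 in KO cells and -0.07 ± 0.06 in WT cells, neither called. Mcoln1, the calcium channel TRPML1, fell by 0.36 ± 0.08 in KO cells, a call lost without KO PBS replicate 1 or stimulated KO replicate 2 (adjusted p up to 0.101), and was at -0.13 ± 0.08 in WT cells. Cln3, the membrane protein altered in juvenile neuronal ceroid lipofuscinosis, was called in neither genotype.

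Of the 5 proton pump subunits, 3 fell and none rose in KO cells, and 2 fell and none rose in WT cells. Atp6v1a, the catalytic subunit of the cytosolic sector, had 412 and 413 CPM in stimulated KO cells, against 804 and 815 CPM in KO cells with PBS. It had 525 and 517 CPM in stimulated WT cells, against 928 and 928 CPM in WT cells with PBS, falls of 0.97 ± 0.05 in KO cells and 0.83 ± 0.05 in WT cells. Atp6v1b2, its partner at the ATP binding site, fell by 0.60 ± 0.08 in KO cells and by 0.54 ± 0.08 in WT cells. Atp6v0d1, of the membrane sector, fell by 0.27 ± 0.08 in KO cells, a call lost without any 1 of 6 of the 8 libraries, and was at -0.21 ± 0.08 in WT cells. Atp6v1h, which couples the sectors, and the accessory subunit Atp6ap1 were not called in either response, with values from -0.16 to 0.03. Summed, the 5 subunits had 1384 and 1391 CPM in stimulated KO cells, against 2012 and 2091 CPM in KO cells with PBS. They had 1526 and 1582 CPM in stimulated WT cells, against 2219 and 2265 CPM in WT cells with PBS.

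Tfeb, the transcription factor of the group, had 23.9 and 24.6 CPM in stimulated KO cells, against 61.8 and 72.1 CPM in KO cells with PBS, a fall of 1.47 ± 0.18. It had 37.6 and 25.4 CPM in stimulated WT cells, against 44.1 and 47.7 CPM in WT cells with PBS. The WT response was -0.54 ± 0.18 and was not called (adjusted p = 0.0504), with the 2 stimulated WT libraries 1.48-fold apart. It was called without stimulated WT replicate 1 and by DESeq2, limma-voom, either other scaling and a stricter filter. Grn, which encodes progranulin, a secreted protein that is carried to lysosomes and cut into granulins, varied between libraries more than between groups. It had 1870 and 1600 CPM in stimulated KO cells and 1260 and 1740 CPM in KO cells with PBS, and it was called in no comparison.

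With PBS alone, the summed lysosomal level of KO cells overlapped with that of WT cells. Of the 39 genes 3 were higher in KO cells and none was lower by edgeR's quasi-likelihood test, where 1.20% of all genes were called higher and 0.355% lower. At an unadjusted p below 0.05 in the edgeR test, 10 were higher and 5 lower, where 15.4% of all genes passed in either direction. DESeq2 called 6 of the 39 higher and 2 lower. Ctsc was higher in KO cells by 0.68 ± 0.06 (adjusted p = 0.00584), with 316 and 302 CPM in KO cells against 189 and 197 CPM in WT cells. Glb1 had 193 and 214 CPM in KO cells, against 146 and 151 CPM in WT cells (0.46 ± 0.07, adjusted p = 0.0373). Gaa had 177 and 194 CPM in KO cells, against 134 and 142 CPM in WT cells (0.42 ± 0.07, adjusted p = 0.0409). All 3 pairs of groups were apart, yet no call was made in all 8 fits that left out 1 library. The call of Ctsc was lost without WT PBS replicate 1 (adjusted p = 0.0513), that of Glb1 without 7 of the 8 libraries in turn and that of Gaa without each of the 8. The fit of the PBS libraries alone called none of the 3. Ctsz, higher in KO cells by 0.36 ± 0.07, missed the threshold (adjusted p = 0.0601) and passed it with DESeq2, limma-voom, library size alone, a stricter filter and the replicate block.

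After LPS and nigericin, 7 of the 39 genes were lower and 2 higher in KO cells than in WT cells, where 2.01% of all genes were called lower and 2.91% higher. The lower ones were Gpnmb, Lipa, Psap, Lgmn, Gla, Ctss and Atp6v1a, which come from every role but that of Tfeb and Grn. The higher ones were Neu1 and Smpd1. The median log2 fold change was -0.13, where that of all genes was 0.00, and 27 of the 39 values were below 0. Under scaling by library size alone, which raises the median of all genes to 0.13, the lysosomal median was 0.01, 19 of the 39 values were below 0, and 6 genes were called lower and 7 higher.

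Gpnmb had 4660 and 4790 CPM in stimulated KO cells, against 7580 and 7810 CPM in stimulated WT cells, a difference of -0.70 ± 0.06 on the log2 scale (adjusted p = 0.00312). It was the single lysosomal gene called in all 8 fits that left out 1 library. Lipa, at 388 and 393 CPM in stimulated KO cells against 651 and 658 CPM in stimulated WT cells, was lower by 0.74 ± 0.08 (adjusted p = 0.00492). Psap was at 0.672 of the WT level (-0.57 ± 0.06, adjusted p = 0.00614). Without stimulated KO replicate 1 the adjusted p was 0.0516 for Lipa and 0.0557 for Psap. Lgmn was lower by 0.49 ± 0.06 (adjusted p = 0.00837), Gla by 0.46 ± 0.06 (adjusted p = 0.0109), Ctss by 0.41 ± 0.07 (adjusted p = 0.0218) and Atp6v1a by 0.34 ± 0.05 (adjusted p = 0.0173). Lgmn, Gla and Atp6v1a lost their calls without either stimulated KO library, Ctss also without stimulated WT replicate 2, and Atp6v1a under scaling by library size alone. The fit of the stimulated libraries alone called neither Ctss, Atp6v1a nor Smpd1. In each of these 7 genes both stimulated KO libraries lay below both stimulated WT libraries. A call of a lower level nearly requires this, and many genes that were not called were apart as well, so it adds no support.

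Neu1 had 223 and 221 CPM in stimulated KO cells, against 153 and 162 CPM in stimulated WT cells (0.50 ± 0.07, adjusted p = 0.0126). Smpd1 had 52.7 and 52.4 CPM in stimulated KO cells, against 36.5 and 39.7 CPM in stimulated WT cells (0.46 ± 0.08, adjusted p = 0.0272). With PBS it had 45.6 and 45.8 CPM in KO cells, against 34.4 and 37 CPM in WT cells (0.36 ± 0.08, adjusted p = 0.0986, not called). The difference between its KO and WT responses was 0.10 ± 0.11 and was not called (adjusted p = 0.817). Neu1 and Smpd1 both encode enzymes that act on membrane glycans or lipids. The stimulated groups were apart in each, which the calls again nearly require. The call of Neu1 was lost without either stimulated KO library, and that of Smpd1 without 6 of the 8 libraries in turn. Ctsb, Ctsd and Lamp2 came close to the threshold, with differences of -0.24 ± 0.05, -0.25 ± 0.06 and -0.24 ± 0.06 and adjusted p of 0.0564, 0.0691 and 0.058, and DESeq2 and limma-voom called all 3 lower. Gusb, Ctsz and Tpp1 had almost the same level in both genotypes after stimulation, with values from -0.03 to 0.01.

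**Figure D5:**
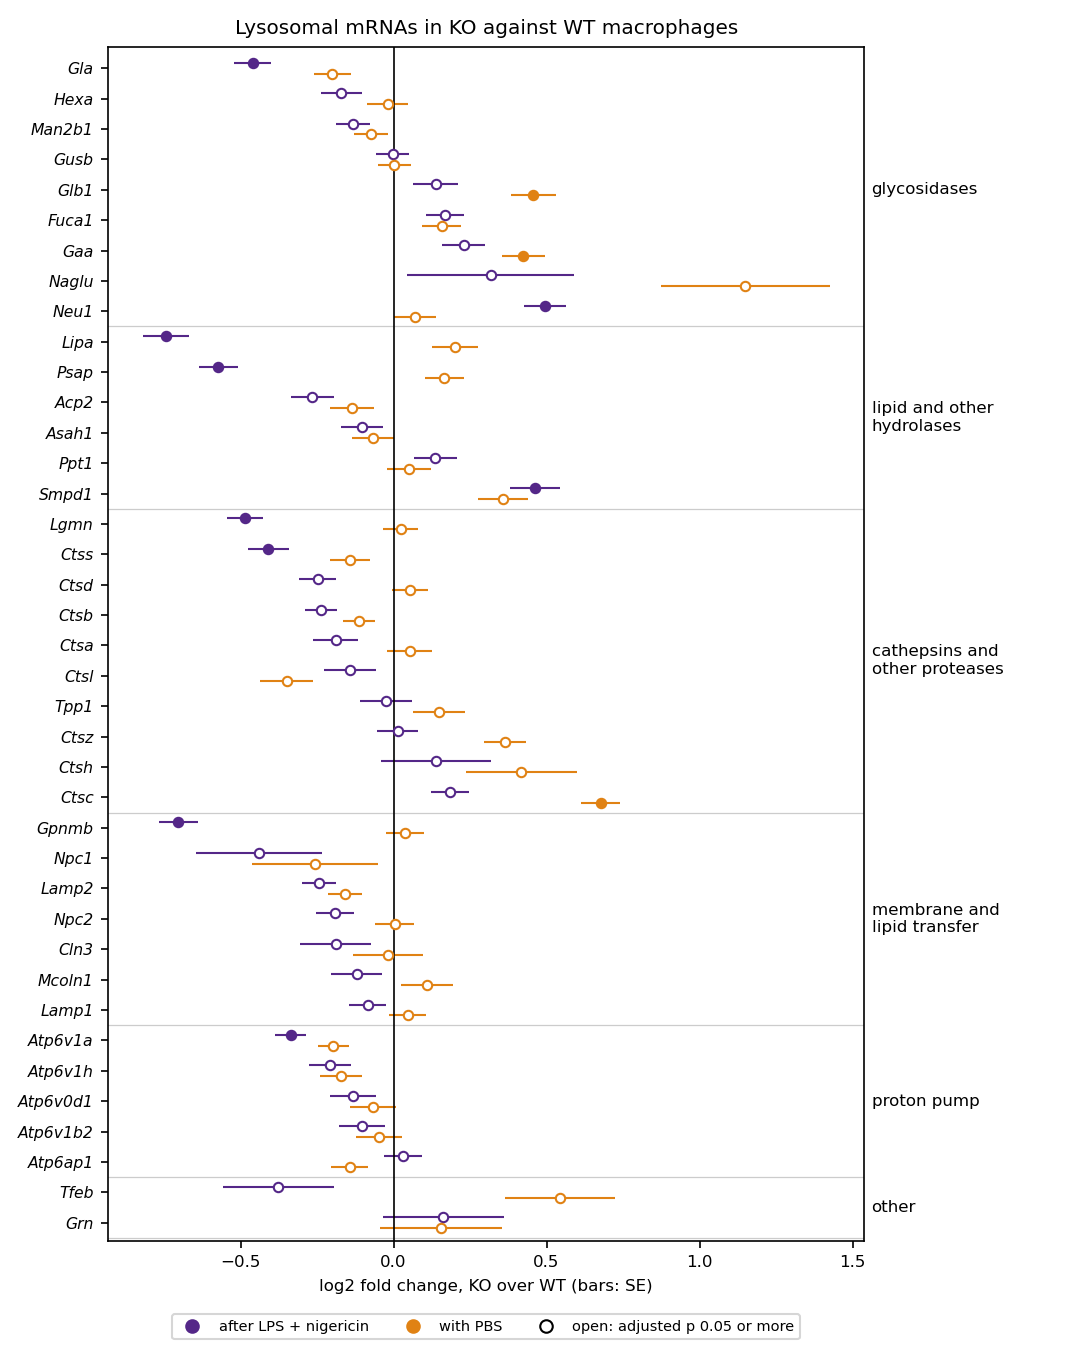
Each row is a lysosomal gene, grouped by role, and the x axis gives the log2 fold change of KO over WT with its standard error, after LPS and nigericin (purple, upper) and with PBS (orange, lower). Filled points passed an adjusted p of 0.05. Gpnmb, Lipa and Psap lie left of 0 after stimulation and close to 0 or right of it with PBS. Neu1 and Smpd1 lie right of 0 after stimulation, and Smpd1 does so with PBS too, as an open point.

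Whether the response itself differed by genotype was tested as the difference of the KO and WT responses. It was called for 3 of the 39 genes, all with a deeper fall in KO cells, where 0.395% of all genes had a negative and 0.103% a positive call. Lipa fell further in KO cells by 0.94 ± 0.11 (adjusted p = 0.023), Gpnmb by 0.74 ± 0.09 (adjusted p = 0.026) and Psap by 0.74 ± 0.09 (adjusted p = 0.0279). The response was negative in both genotypes for all 3, so the call is one of size and not of direction. Lgmn (-0.51 ± 0.08, adjusted p = 0.0753) and Ctsc (-0.49 ± 0.09, adjusted p = 0.0858) had the next smallest adjusted p and were not called. Tfeb (-0.92 ± 0.26, adjusted p = 0.238) and Naglu (-0.83 ± 0.39, adjusted p = 0.517) had larger estimates with larger errors and were not called either. Of the 39 values 32 were below 0 and the median was -0.17, where that of all genes was 0.00. Under scaling by library size alone 25 were below 0 and the median was -0.07, where that of all genes was 0.10. DESeq2 called 6 genes with a negative and 1 with a positive difference. With 1 library left out, the adjusted p reached 0.117 for Lipa, 0.129 for Psap and 0.127 for Gpnmb. The call of Lipa was made in 3 of these 8 fits and those of Psap and Gpnmb in 2, while their estimates stayed between -1.02 and -0.67.

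Markers of other cells and of macrophages moved with genotype beside these results. Of all genes tested, 2.91% were higher and 2.01% lower in KO cells after stimulation, and 1.20% were higher and 0.355% lower with PBS. Of 8 fibroblast or stromal markers 7 were higher in stimulated KO than stimulated WT cells and 2 were higher with PBS. Their summed level was 329.4 to 368.2 CPM in stimulated KO cells, 126.7 to 130.1 CPM in stimulated WT cells, 276.3 to 294.9 CPM in KO cells with PBS and 176.9 to 197.8 CPM in WT cells with PBS, with all 8 above 0 in every group. In the responses 4 of these 8 rose in KO cells, and 5 fell and 1 rose in WT cells, with 2 called as different between the responses. Of 7 B or plasma cell markers 4 were tested and 2 were higher in stimulated KO than stimulated WT cells, with a summed level of 3.58 to 3.74 CPM in stimulated KO cells and 0.72 to 0.80 CPM in stimulated WT cells. With PBS 1 was higher in KO cells, and the sum was 2.55 to 2.58 CPM in KO cells and 0.41 to 0.56 CPM in WT cells. Jchain made up most of the sum in all KO libraries. Ms4a1, Mzb1 and Pax5 were at 0 in both stimulated WT libraries. Of 8 macrophage markers 3 were lower in stimulated KO than stimulated WT cells, among them Lyz2 by 1.14 ± 0.06 and Adgre1 by 0.46 ± 0.05, and none was higher. With PBS 2 macrophage markers were lower in KO cells, among them Lyz2 by 0.99 ± 0.06, while 4 of the 8 values were above 0 and 4 below. Lyz2 also drives Cre in the KO mice. Its lower level there cannot be told apart from an effect of the Cre allele. Of 6 osteoclast markers tested 2 were higher and 1 lower in stimulated KO than stimulated WT cells, and 1 was higher in KO cells with PBS. Ctsk had 42.5 and 40.9 CPM in stimulated KO cells against 16.1 and 17.6 CPM in stimulated WT cells, and 145 and 164 CPM in KO cells with PBS against 52.1 and 54.8 CPM in WT cells with PBS. Calcr had 15.5 and 18.3 CPM in stimulated KO cells against 1.67 and 2.17 CPM in stimulated WT cells, and was at 0 with PBS. Of 5 dendritic cell markers tested 1 was called lower in stimulated KO cells, Itgax. It had 136 and 142 CPM there, against 239 and 234 CPM in stimulated WT cells. The other 4 values lay above 0 and none of them was called. Among them Ccr7 had 1.86 and 2.27 CPM in stimulated KO cells, against 0.346 and 0.43 CPM in stimulated WT cells. None of the 2 T or NK cell, 4 erythroid or megakaryocyte and 1 mast cell or basophil markers tested was called between genotypes. The part of these markers in the lysosomal differences was not tested.

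Genes of the marker lists were also called with stimulation. For comparison, 19.0% of all genes tested fell and 20.2% rose in KO cells, and 20.0% fell and 20.6% rose in WT cells. Of the 8 macrophage markers 4 fell and 2 rose in KO cells, and 3 fell and 3 rose in WT cells. The 8 neutrophil markers summed to 30.26 to 33.58 CPM in stimulated KO cells, 27.88 to 35.55 CPM in stimulated WT cells, 5.43 to 5.75 CPM in KO cells with PBS and 3.54 to 3.85 CPM in WT cells with PBS. Of the 5 tested, 2 rose in each genotype, S100a8 made up most of the sum, and Ly6g was at 0 throughout. Of 7 osteoclast markers, 6 were tested, with 2 risen and 3 fallen in KO cells and 2 risen and 2 fallen in WT cells. They summed to 466.6 to 470.9 CPM in stimulated KO cells, 535 to 599.1 CPM in stimulated WT cells, 1131 to 1187 CPM in KO cells with PBS and 1149 to 1190 CPM in WT cells with PBS, with Oscar near 0. Single genes carried this sum in opposite directions. Atp6v0d2 had 29.5 and 26.4 CPM in stimulated KO cells against 845 and 893 CPM in KO cells with PBS, and 40.3 and 44.3 CPM in stimulated WT cells against 989 and 1040 CPM in WT cells with PBS. Acp5 had 383 and 381 CPM in stimulated KO cells against 139 and 128 CPM in KO cells with PBS, and 476 and 535 CPM in stimulated WT cells against 106 and 93.8 CPM in WT cells with PBS. Of the dendritic cell markers 2 rose and 2 fell in KO cells, and 1 rose and 1 fell in WT cells. Itgax was among those that fell in KO cells, with 136 and 142 CPM after stimulation against 259 and 287 CPM with PBS, and its response differed between genotypes. Of the 2 T or NK cell markers tested, Cd4 fell in both genotypes, while Cd3e was at 0 in every library. Of the B or plasma cell markers none was called in KO cells, and 1 rose and 1 fell in WT cells. Of the erythroid or megakaryocyte markers 1 rose and 1 fell in KO cells, and 1 fell in WT cells. The part of these lists in the lysosomal responses was not tested.

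The wider lysosomal system was followed with 80 further genes, of which 75 were tested. After stimulation 38 fell and 11 rose in KO cells (50.7% and 14.7%), where 19.0% of all genes fell and 20.2% rose. In WT cells 37 fell and 14 rose (49.3% and 18.7%), where 20.0% of all genes fell and 20.6% rose. Among the other lysosomal enzymes 14 of 22 fell in KO cells and 12 of 22 in WT cells. The hyaluronidase Hyal1 had the deepest fall of these, with 1.39 and 2.31 CPM in stimulated KO cells against 13.4 and 8.99 CPM in KO cells with PBS, and 4.07 and 3.1 CPM in stimulated WT cells against 20.2 and 17 CPM in WT cells with PBS. Aga, which cleaves glycans from asparagine, rose by 0.83 ± 0.08 in KO cells and by 0.97 ± 0.08 in WT cells. Among the other membrane proteins 10 of 16 fell in KO cells and 11 of 16 in WT cells. The calcium channel Tpcn1 fell by 2.24 ± 0.09 in KO cells and by 2.05 ± 0.09 in WT cells.

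Of the 12 other proton pump subunits 3 fell and 1 rose in KO cells (25% and 8.33%), where 19.0% of all genes fell and 20.2% rose. In WT cells 3 fell and 3 rose (25% each), near the 20.0% and 20.6% of all genes. Within the membrane subunit a, isoforms parted. Atp6v0a1 had 35.6 and 37.3 CPM in stimulated KO cells against 169 and 189 CPM in KO cells with PBS, and 44 and 39.8 CPM in stimulated WT cells against 173 and 178 CPM in WT cells with PBS. Atp6v0a2 rose in WT cells (log2 fold change 1.1 ± 0.16), with 86 and 83.7 CPM after stimulation against 40.7 and 38.4 CPM with PBS. In KO cells it was not called, with 59.3 and 85 CPM after stimulation against 53.7 and 55.5 CPM with PBS, and the difference between the responses was not called (adjusted p = 0.303). Atp6v1e1 had the largest rise on this list in KO cells, of 0.66 ± 0.07, and rose by 0.77 ± 0.07 in WT cells. Tcirg1, which encodes the a3 isoform, had 507 and 492 CPM in stimulated KO cells, against 637 and 652 CPM in stimulated WT cells (-0.37 ± 0.05, adjusted p = 0.016), in the same direction as Atp6v1a.

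Of the genes that sort enzymes to lysosomes, 3 of 9 fell and 3 rose in KO cells (33.3% each), where 19.0% of all genes fell and 20.2% rose. In WT cells 4 fell and 2 rose (44.4% and 22.2%), where 20.0% of all genes fell and 20.6% rose. The sorting receptor Sort1 fell by 2.27 ± 0.10 in KO cells and by 2.48 ± 0.11 in WT cells, while M6pr, a mannose 6-phosphate receptor, rose by 0.98 ± 0.06 in KO cells and by 1.09 ± 0.06 in WT cells. Nagpa, the enzyme that uncovers the mannose 6-phosphate tag, had 113 and 110 CPM in stimulated KO cells, against 39 and 39.9 CPM in KO cells with PBS. It had 88.6 and 106 CPM in stimulated WT cells, against 67.4 and 70.1 CPM in WT cells with PBS. It was lower in KO than WT cells with PBS by 0.80 ± 0.10 (adjusted p = 0.0148), and its response was larger in KO cells by 1.00 ± 0.14 (adjusted p = 0.0417), the single call of a difference among the wider genes. Gnptab, which makes the first step of the tag, had 184 and 151 CPM in stimulated KO cells, against 112 and 105 CPM in stimulated WT cells (0.63 ± 0.13, adjusted p = 0.0468).

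Of 12 regulators of lysosomal genes 6 fell (50%) and none rose in KO cells, where 19.0% of all genes fell and 20.2% rose. In WT cells 6 fell and 1 rose (50% and 8.33%), where 20.0% of all genes fell and 20.6% rose. Rragd, a Rag GTPase that tethers mTORC1 and TFEB at the lysosome, had 5.95 and 4.55 CPM in stimulated KO cells, against 47.7 and 51.2 CPM in KO cells with PBS. It had 6.2 and 5.63 CPM in stimulated WT cells, against 55.4 and 47.3 CPM in WT cells with PBS, the deepest fall of the wider lists in both genotypes. Tfe3 rose slightly in WT cells, by 0.23 ± 0.06, and was at 0.15 ± 0.06 in KO cells, not called. Of 8 cathepsin inhibitors 4 were tested. Cst7, cystatin F, which is carried to lysosomes and inhibits cathepsin C and related enzymes, had 59.9 and 59.9 CPM in stimulated KO cells, against 0.31 and 0.18 CPM in KO cells with PBS. It had 99.4 and 120 CPM in stimulated WT cells, against 0.34 and 0.35 CPM in WT cells with PBS. After stimulation Cst7 was lower in KO than WT cells by 0.87 ± 0.14 (adjusted p = 0.0225). Cst3, cystatin C, fell by 0.33 ± 0.07 in KO cells and by 0.32 ± 0.07 in WT cells. Serpinb6b fell by 1.26 ± 0.32 in KO cells, at a level of 0.79 to 2.77 CPM in the KO libraries, and was at -0.75 ± 0.32 in WT cells, not called. With PBS, Hgsnat, which acetylates heparan sulfate at the lysosomal membrane, had 568 and 554 CPM in KO cells, against 394 and 416 CPM in WT cells (0.47 ± 0.08, adjusted p = 0.0404). None of the genotype calls of the wider genes was made in all 8 fits that left out 1 library, with adjusted p up to 0.215 for Hgsnat, 0.121 for Tcirg1, 0.228 for Gnptab, 0.143 for Cst7 and 0.186 for the response of Nagpa. The calls of Tfe3 and Cst3 in WT cells and of Serpinb6b in KO cells were also lost without at least 1 library, and that of Tfe3 under scaling by library size alone.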

How the data were processed

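The deposited table held raw counts per gene, with no normalization by the authors stated in it; per the submitters' processing notes, Trimmomatic, Bowtie2, edgeR and the mouse build mm10 were used, and the sources used here name no counting tool or annotation. Without a known strand setting, reads of overlapping genes cannot be assigned. Libraries held 55032057 to 65487739 counts, and counts of a group's libraries differed by more than sampling noise. Genes were matched by symbol through Ensembl IDs. All 8 libraries entered one edgeR 4.0.16 quasi-likelihood fit (R 4.3.3, TMM scaling, filterByExpr with minimum counts of 10 per library and 15 in total) with 5 contrasts, tested two-sided with Benjamini-Hochberg adjustment over 17470 genes at 0.05. Standard errors come from the unshrunk log2 fold change and its F statistic. Exonic lengths and gene positions came from GENCODE M21 and promoters from RefSeq (GRCm38.p6). The fit was tested on simulated data. Alternatives were other scalings, DESeq2 1.42.0, limma-voom (limma 3.58.1), other filters, only the groups compared, a block for the replicate number, and leaving out each library in turn. Same-numbered libraries of different groups deviated together with correlations of -0.015 to 0.101, so the numbers were not treated as pairs. The members and lists were chosen with earlier results of these data known. The text names all 39 genes and, of each wider list, the called gene with the largest rise and the largest fall in each contrast. Some items that fall under this rule are not reported here.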

Additional observations from a re-analysis of the deposited data

Results flagged for a closer look

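For 4 genes the test of the difference between the KO and WT responses to LPS and nigericin passed the threshold (edgeR, adjusted over all genes). The difference, KO minus WT on the log2 scale, was -0.9449 for Lipa, -0.7381 for Psap, -0.7413 for Gpnmb and 0.9962 for Nagpa.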

How the results depend on the processing

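Both other scalings kept the summed level after stimulation below that of PBS in both genotypes, and under library size alone the summed levels were 63020 CPM in stimulated WT cells, 123100 CPM in KO cells with PBS and 118700 CPM in WT cells with PBS. For KO against WT with PBS, DESeq2 called 572 genes higher and 304 lower (lysosomal genes 6 and 2), limma-voom called 104 lower, and the fit of only the groups compared called 33 higher and 12 lower (lysosomal genes 0 higher). For KO against WT after stimulation, DESeq2 called 943 higher and 711 lower (11 lysosomal genes lower), library size alone 1044 higher (7 lysosomal), and only the groups compared 300 higher and 203 lower (1 lysosomal gene higher). For the difference of the responses, DESeq2 called 192 positive and 294 negative (lysosomal genes 1 and 6). With 1 library left out, calls over all genes ranged from 2582 to 3616 up and 2379 to 3467 down in KO cells (lysosomal genes 4 to 5 and 21 to 25), and from 2748 to 3474 up and 2520 to 3270 down in WT cells (4 to 7 and 15 to 20). For the genotypes with PBS they ranged from 56 to 196 higher and 17 to 68 lower (0 to 2 and 0), after stimulation from 80 to 356 higher and 76 to 263 lower (0 to 2 and 1 to 8), and for the difference from 5 to 31 positive and 15 to 68 negative (0 and 0 to 4). Leaving out 1 library, the KO response of Naglu was 0.32 without KO PBS replicate 2 and -0.6711 without KO PBS replicate 1. With the replicate number as a block, 9 lysosomal genes were lower and 2 higher in stimulated KO cells, no lysosomal call was lost, and Gnptab (adjusted p = 0.0714) and the response difference of Nagpa (adjusted p = 0.0628) were; the numbers give no evidence of pairing (correlations of -0.015 to 0.101). The 8-letter core occurred in 7 genes over the whole window and in 6 upstream of the start. The causes of these shifts were not tested. With 2 libraries a group and 4 residual degrees of freedom, a difference that was not called is not shown to be absent.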
